A study of Mus musculus with 17 samples.

Results

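The change of gene expression over 3 days of retinoic acid (RA) treatment was examined in wild-type R1 mouse embryonic stem cells. The comparison took the 3 wild-type libraries of day 3 and the 2 wild-type libraries of day 0 from a series of 17, and its members were the 18475 genes of 54532 listed that had at least 1 TPM (transcripts, scaled to a fixed total per library and to gene length) in at least 2 of these 5 libraries. R1 is a mouse embryonic stem cell line, here with intact *Usb1*, the gene that was inactivated in the other arm of the series, and day 0 is the self-renewal culture without RA. The wild-type libraries of day 1 (n = 3) served to place a gene between both ends. The *Usb1* knockout libraries of day 0, 1 and 3 (n = 3 each, from 1 knockout line) entered the model as groups of their own, so that all 17 libraries shared an estimate of the spread. Replicates are described as independent biological replicas, and the RA concentration is not given in the sources used here. Reads on genes, recovered from the deposited TPM, numbered 16686771 and 15630729 at day 0 and 16271707, 16361909 and 15926491 at day 3.

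Embryonic stem cells hold their undifferentiated state through a network of transcription factors around Oct4 (encoded by *Pou5f1*), Sox2 and Nanog, sustained in culture by leukemia inhibitory factor (LIF). RA enters the nucleus, binds receptors of the RAR family paired with RXR partners on DNA, and turns bound genes from a repressed to an active state. It is known for switching on the *Hox* clusters, which encode positional transcription factors, and its own clearing enzymes of the Cyp26 family. Depending on culture, RA drives these cells toward neural progenitors or toward extraembryonic endoderm, the lineage that lines the yolk sac and secretes basement membrane.

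The day 0 libraries stood apart before any comparison, replicate 1 most. Replicate 1 of day 0 held few genes of low read number, with 239 genes at 1 read against 1352 in replicate 2 of day 0 and 2336 to 2400 at day 3. Genes with no read in replicate 1 of day 0 but 10 or more in replicate 2 numbered 1159, while the opposite was seen for 373 genes and for 7 to 18 genes in the pairs of day 3 libraries. Across genes, Pearson's r of log2(TPM + 1) was 0.930 between both day 0 libraries, 0.970 to 0.976 among the day 3 libraries and 0.806 to 0.835 between the days. Genes above 0 TPM numbered 17090 and 22314 in the day 0 libraries and 21898 in replicate 1 of knockout day 3, against 23022 to 24900 in the other 14 libraries of the series. The values of r are descriptions across genes, which share a library and are not independent replicates. The counts over all genes are therefore given with and without this library, and for a gene group where the count without it differed. Transcripts of the mitochondrial genome took 5.98% and 5.71% of the TPM at day 0 and 8.71%, 7.86% and 7.99% at day 3, and the part of this shift in the gene results was not tested.

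**Figure D1:**
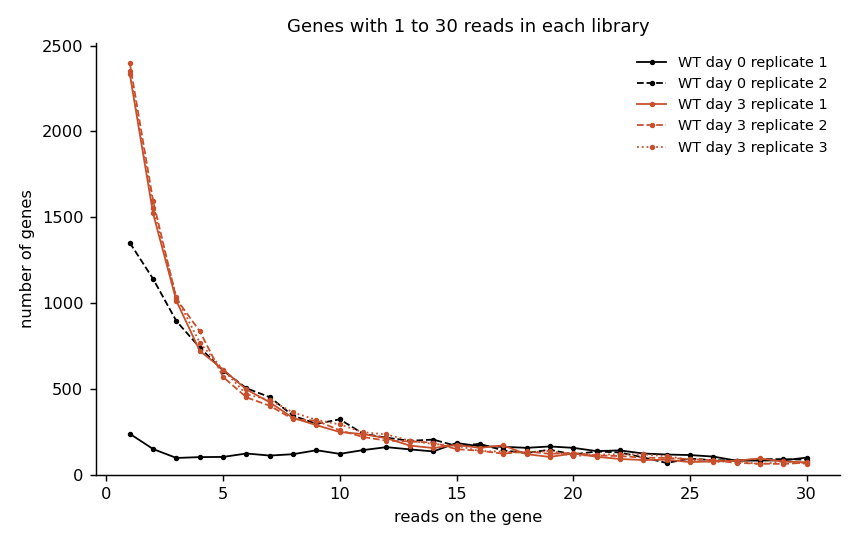
Number of genes (vertical axis) with 1 to 30 recovered reads (horizontal axis) in each of the 5 libraries. Day 0 replicate 1 (solid black) had 239 genes at 1 read against 1352 to 2400 in the other 4 libraries, and the curves met near 15 reads.

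RA receptors bind paired half-sites in DNA, so gene starts were searched for such pairs. A direct repeat of the receptor half-site with 5 bases in between was searched in the RefSeq promoter windows of GRCm38.p6 (250 bases before to 50 after the start), as any pair of the half-sites AGGTCA or AGTTCA or GGGTCA or GGTTCA in the same orientation, on both strands. The search covered 11373 of the genes tested that matched a promoter by symbol, and 5 of them (0.044%) held the repeat, against 31 of all 27025 promoters (0.115%). Repeats with 2 and 1 bases in between, searched in the same way, were held by 15 (0.132%) and 34 (0.299%) of the genes tested. Of all 27025 promoters, 84 (0.311%) and 71 (0.263%) held them. Of the 2338 genes with a promoter that were called higher at day 3, 3 (0.128%) held the 5-base, 5 (0.214%) the 2-base and 5 (0.214%) the 1-base spacing. Of the 1194 called lower, 1 (0.0838%), 2 (0.168%) and 3 (0.251%) did. The 100 bases before the start are shown for the 3 of these genes that were called higher at day 3, *Cyp26a1*, *Rarb* and *Blvrb*, each on the strand of the gene with the matched repeat in capitals.
Cyp26a1 (chr19:37697708-37697807, + strand): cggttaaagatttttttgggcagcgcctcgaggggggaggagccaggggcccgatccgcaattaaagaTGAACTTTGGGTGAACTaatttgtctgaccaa
Rarb (chr14:16575477-16575576, - strand): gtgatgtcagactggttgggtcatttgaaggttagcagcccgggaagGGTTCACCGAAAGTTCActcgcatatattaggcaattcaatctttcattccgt
Blvrb (chr7:27452318-27452417, + strand): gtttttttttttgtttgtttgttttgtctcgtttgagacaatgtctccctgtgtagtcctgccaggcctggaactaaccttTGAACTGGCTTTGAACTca
The match lay 32 to 16 bases before the start in *Cyp26a1*, 53 to 37 bases in *Rarb* and 19 to 3 bases in *Blvrb*, and in *Cyp26a1* and *Blvrb* it reads on the opposite strand. The other two genes with the repeat were *Syndig1*, which fell, and *Cfap45*, which was not called with both day 0 libraries but was called lower without replicate 1 (log2 fold change −1.46) and had a positive change without replicate 2 (0.56, not called), with the repeats GGGTCACCCCTAGTTCA and TGAACCTGGCTTGAACT beginning 167 and 221 bases before the start. *Blvrb*, *Syndig1* and *Cfap45* are named because the search returned them. A match is a run of letters and does not show that a receptor binds there.

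*Cyp26a1*, whose enzyme oxidizes and clears RA, was at 3.66 and 1.78 TPM at day 0, reached 111 ± 7.09 TPM (SD, n = 3) at day 1, and was at 440.1, 419 and 347 TPM at day 3. Its log2 fold change on the log2(TPM + 1) scale was 6.80 (SE 0.22, adjusted p = 3.69e-12, limma), and 7.17 without day 0 replicate 1. *Rarb*, the RA-inducible receptor, rose from 0.517 and 0.0429 TPM to 23.3, 24.1 and 28.1 TPM (log2 fold change 4.38, SE 0.19, adjusted p = 8.58e-11). *Blvrb*, an enzyme of biliverdin reduction, rose less, from 11.2 and 13.9 TPM to 37.5, 40.3 and 35.9 TPM. All day 3 libraries lay above both day 0 libraries for each of these genes.

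Across the genome, a gene was called at a Benjamini-Hochberg adjusted p under 0.05 in limma together with at least a 2-fold change on the log2(TPM + 1) scale, a scale that compresses changes of weakly expressed genes. This gave 5595 of the 18475 genes (30.3%), of which 3540 (19.2%) were higher and 2055 (11.1%) lower at day 3. Without day 0 replicate 1, 5171 of these 18475 genes were called, 3152 higher (17.1%) and 2019 lower (10.9%), and 4530 were called in both. Without replicate 2 of day 0, where fewer genes passed the filter, 6131 of 17499 were called, 4212 higher and 1919 lower. The counts of higher and lower genes in the groups below stand against these 19.2% and 11.1%. Some genes belong to several groups, so the groups are not independent of each other. At the adjusted p alone 11323 genes passed (61.3%). The libraries of both days did not overlap for 12561 genes (68.0%), with day 3 above day 0 for 37.9% and below it for 30.1%. The median change of all genes tested was 0.12 on the log2 scale. The higher share, 63.3% of the calls, depended on scaling. It was 50.6% after quantile normalization (2631 higher, 2567 lower) and 53% after scaling to an equal median (2965 higher, 2634 lower), where the median change was −0.04 and −0.05. Genes called higher had a median fold of 3.12, and 488 of them had no read in either day 0 library. Genes called lower had a median fold of 2.91, and 69 had no read in any day 3 library. Of the genes called higher, 1182 reached 1 TPM at day 3 alone and so entered the comparison through the day on which they were high, which also holds for members of the gene groups below. In the other direction, 522 of the genes tested reached 1 TPM at day 0 alone, among them *Nkx6-3*, *Krt17* and *Pou4f2* of the largest falls. In bulk RNA, fewer cells of a type and less RNA per cell cannot be told apart.

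**Figure D2:**
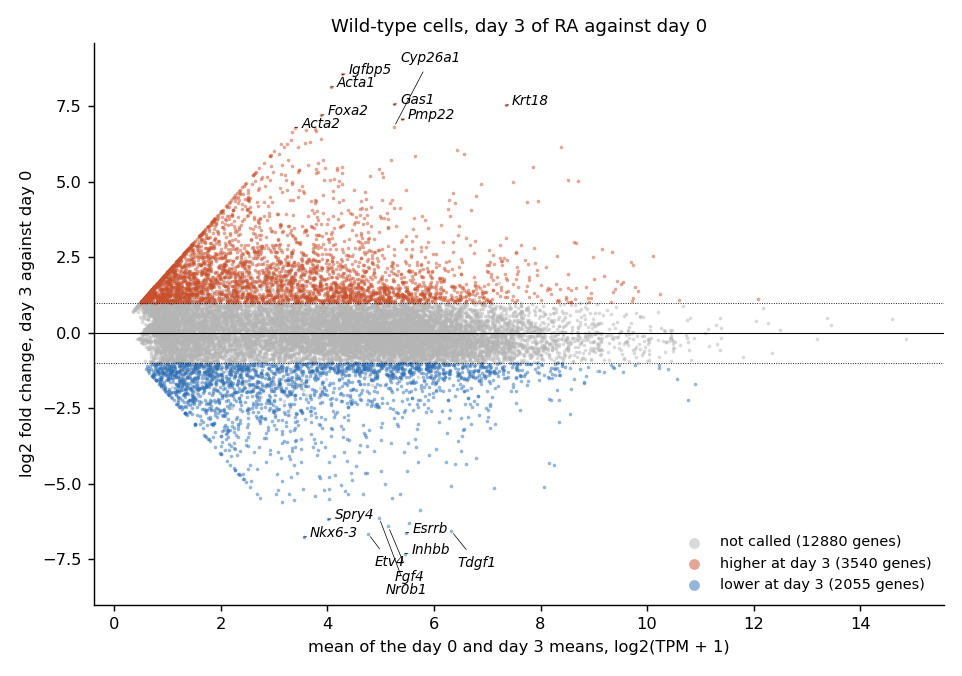
Log2 fold change at day 3 against day 0 (vertical axis) and the average of the group means on the log2(TPM + 1) scale (horizontal axis) for the 18475 genes tested, with dotted lines at 2-fold and the 8 largest rises and falls named. Rises reached 8.55 (Igfbp5) and falls −7.31 (Inhbb), and the straight upper left edge is made of genes at or near 0 TPM at day 0.

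The largest rises among called protein-coding genes were led by *Igfbp5* (chr1:72857932-72874884), a secreted binder of insulin-like growth factors, which had no read at day 0 and was at 392, 304 and 442 TPM at day 3 (log2 fold change 8.55, SE 0.15). Next were *Acta1*, an actin of the contractile apparatus (no read at day 0 and 285, 274 and 277 TPM at day 3), and *Gas1*, a membrane protein that binds Hedgehog ligands (0.636 and 3.66 TPM, then 519, 522 and 517 TPM). The simple-epithelial keratin *Krt18* went from 11.9 and 10.1 TPM to 2209, 2253 and 2182 TPM, which was 201-fold. Its libraries at day 3 differed from each other by far less than from day 0. The rest of the 15 largest rises were *Foxa2*, *Pmp22*, *Cyp26a1*, *Acta2*, *Csf1*, *Plat*, *Tinagl1*, *Hoxa5*, *Myl9*, *Dkk1* and *App*, with log2 fold changes of 6.33 to 7.20. For genes with no read at day 0 the fitted change depends on the pseudocount and is not a fold of TPM. The risers include a pioneer factor of endoderm (*Foxa2*), secreted proteins that act outside the cell (*Csf1*, a macrophage growth factor, *Plat*, a plasminogen activator, and *Dkk1*, a Wnt inhibitor) and contractile genes (*Acta2*, *Myl9*). *Acta1* and *Acta2* encode almost identical proteins, so reads may be shared between them.

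The largest falls were led by *Inhbb* (chr1:119415465-119422248), which encodes a subunit of activin B and dropped from 562 and 544 TPM to 2.08, 2.53 and 2.89 TPM (log2 fold change −7.31, SE 0.12, adjusted p = 5.74e-15). *Nkx6-3*, a homeobox gene, fell from 114 and 129 TPM to 0.0966, 0 and 0.311 TPM. *Esrrb*, an orphan nuclear receptor of the naive network, was 126-fold lower, at 430.0 and 449.8 TPM and then 3.82, 3.50 and 3.18 TPM. The other genes of the 15 largest falls were *Etv4*, *Tdgf1*, *Fgf4*, *Spry4*, *Nr0b1*, *Krt17*, *Gbx2*, *Mymx*, *Foxd3*, *Slc7a3*, *Pou4f2* and *Eras*, with log2 fold changes of −6.65 to −5.25. Several are tied to fibroblast growth factor signaling (*Fgf4*, the ligand of these cells, *Etv4*, a transcription factor downstream of it, and *Spry4*, a feedback inhibitor). Each of these 30 genes was also called without day 0 replicate 1.

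Naive pluripotency factors fell as a group. Of 18 listed genes, 17 were tested, 15 were lower, none was higher, and their median change was −3.42 on the log2 scale. *Nanog* was at 803 and 836 TPM at day 0, still at 713 ± 22.1 TPM at day 1, then at 23.5, 24.2 and 20.2 TPM at day 3 (log2 fold change −5.12, SE 0.07, adjusted p = 3.45e-15). *Zfp42*, the marker also called Rex1, fell from 1285 and 1238 TPM to 63.4, 68.3 and 57.7 TPM. The order in time differed among these genes. *Tdh*, the threonine dehydrogenase of mouse embryonic stem cells, was at its low point at day 1 (10.7 ± 0.715 TPM) after 442 and 426 TPM at day 0, and was at 16.9, 25.6 and 20.1 TPM at day 3. *Klf4* likewise was already at 61.8 ± 2.77 TPM at day 1, close to its 57.5, 58.9 and 57.4 TPM at day 3, after 279 and 324 TPM at day 0. *Tbx3*, a T-box factor of the same network that also acts in endoderm, was not called, with 169.6 and 173 TPM at day 0 and 223, 206 and 238 TPM at day 3.

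Of the 14 core pluripotency genes, 11 fell and none rose (median change −2.60). *Pou5f1* was at 1393 and 1371 TPM at day 0, then at 63.8, 74.7 and 61.2 TPM at day 3, 20.8-fold lower (log2 fold change −4.36, SE 0.07, adjusted p = 6.36e-15). *Sox2*, its partner on DNA, fell less, from 873 and 933 TPM to 109, 124 and 112 TPM, a 7.86-fold difference. *Utf1* went from 1512 and 1645 TPM to 40.0, 51.1 and 44.0 TPM. *Lin28a*, which blocks let-7 maturation, and the zinc finger gene *Sall4* were not called, at 154 and 218 TPM on average at day 0 and 124 and 122 TPM at day 3. The high day 0 levels of *Pou5f1*, *Sox2*, *Nanog* and *Esrrb* match the labelled cell type.

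Genes of the formative and primed states, through which pluripotent cells pass on the way to the germ layers, were also mostly lower at day 3. Of 11 tested, 7 fell and 1 rose (median −2.10), with 2 called higher without day 0 replicate 1. Of the 11, 2 passed the filter through day 0 alone, so the share of falls is not a measure of how general the fall was. One of these was *Otx2*, a leading factor of the primed state, at 6.10 and 3.64 TPM at day 0, then at 0.563, 0.150 and 0.330 TPM at day 3. *Fgf5*, the classical marker of the primed state, was below the filter, with 1.35 TPM at most. The gene that rose was *Dnmt3a*, a de novo DNA methyltransferase, at 7.89 and 10.1 TPM and then 21.8, 21.3 and 24.9 TPM.

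**Figure D3:**
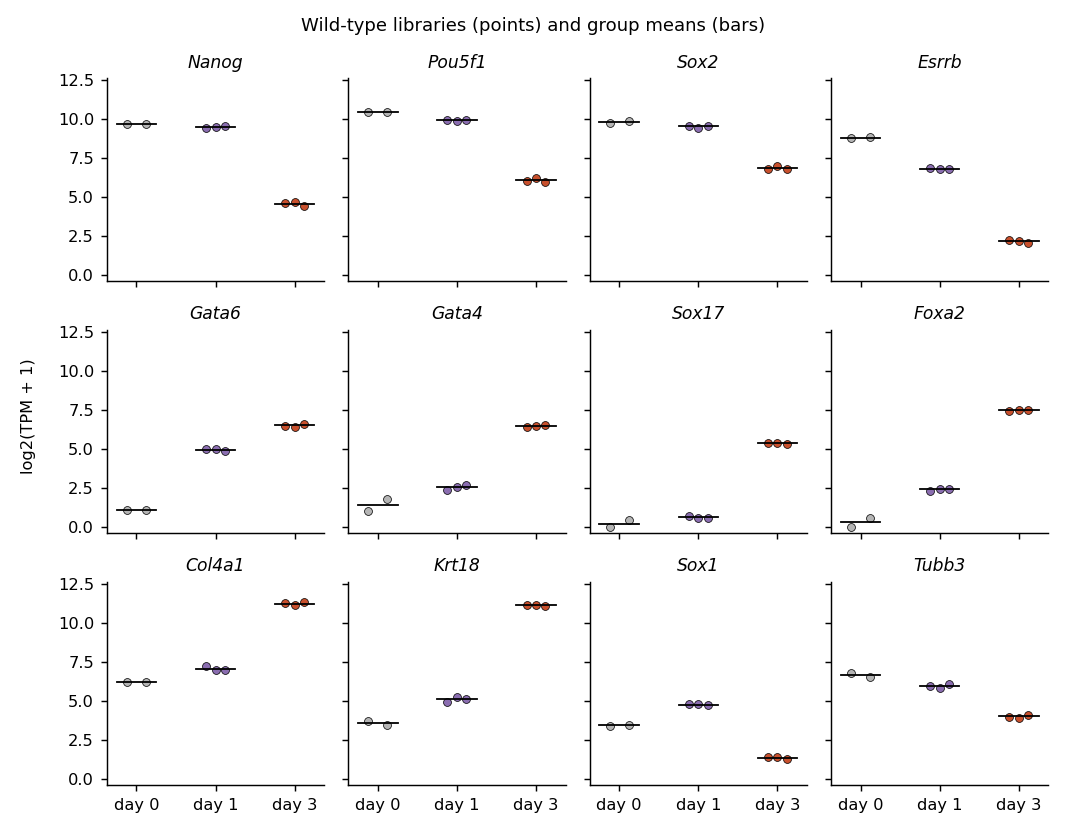
Level of 12 genes as log2(TPM + 1) in each wild-type library of day 0 (n = 2), day 1 (n = 3) and day 3 (n = 3), with bars at the group means. Nanog, Pou5f1 and Sox2 dropped mainly after day 1, the 4 endoderm regulators of the middle row were highest at day 3, and Sox1 and Tubb3 ended below day 0.

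RA synthesis, binding, receptor and clearance genes were mostly higher at day 3. Of 24 listed, 22 were tested, 14 rose and 3 fell, with a median of 2.07, or 13 and 2 without day 0 replicate 1. Among clearing enzymes, *Cyp26b1* and *Cyp26c1* rose along with *Cyp26a1*, to 33.4 ± 3.07 and 16.5 ± 3.17 TPM (SD, n = 3). *Dhrs3*, which turns retinal back into retinol, was at 2.72 and 2.16 TPM at day 0, then at 101, 100.1 and 91.7 TPM at day 3. The carrier *Crabp2* rose from 5.86 and 2.73 TPM to 85.5 ± 13.8 TPM. *Crabp1*, the other cellular RA-binding protein, went the opposite way, from 45.7 and 24.2 TPM to 9.70, 16.9 and 10.4 TPM, a call that was lost without day 0 replicate 1. *Stra6*, the retinol importer, had no read at day 0 and was at 8.82, 8.12 and 7.76 TPM at day 3. Among the receptors the direction differed. *Rarb* rose, *Rarg* fell from 148 and 175 TPM to 48.9, 47.4 and 51.8 TPM, and *Rara* was at 52.9 and 69.6 TPM at day 0 and 60.1, 61.0 and 61.8 TPM at day 3 (log2 fold change 0.01, SE 0.09, adjusted p = 0.956). *Rxra* and *Rxrb*, the partner receptors, were not called, with log2 fold changes of −0.12 and −0.10.

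Of all 39 *Hox* genes, 30 were called higher and none lower, 1 was tested and not called, and 8 were below the filter. Of these 30, 24 passed the filter through day 3 alone, so their share among the tested genes is not a measure of how general the rise was. Without day 0 replicate 1, 29 were called higher. Summed over the 39 genes, *Hox* transcripts were at 17.7 and 18.0 TPM at day 0, 481.1 to 501.1 TPM at day 1 and 636.5, 642.1 and 608.2 TPM at day 3. No read was found in either day 0 library for 20 of the genes. The gene tested but not called was *Hoxc12* (2.84 and 0.876 TPM, then 1.89, 2.46 and 1.57 TPM). The 8 genes below the filter were *Hoxa11*, *Hoxa13*, *Hoxc11*, *Hoxd3*, *Hoxd4*, *Hoxd10*, *Hoxd11* and *Hoxd12*, each under 1 TPM in every library of these days.

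Timing was set side by side for the clusters. Of the 30 genes, 21 were already called higher at day 1 against day 0, where 10.5% of all genes tested were called higher and 4.53% lower. These comparisons share libraries. The summed level of the *Hoxa* genes was at 313.4 to 332.3 TPM at day 1 and 276.9, 289.7 and 258.3 TPM at day 3, and that of the *Hoxb* genes went from 150.3 to 155.4 TPM at day 1 to 253.5, 248.8 and 248.3 TPM. *Hoxc* genes together had 9.5 to 13.3 TPM at day 1 and 93.5, 90.6 and 90.6 TPM at day 3. Between day 1 and day 3, where 9.17% of all genes tested were called higher and 7.27% lower, all 8 *Hoxc* genes tested were called higher, against 4 of 10 *Hoxb*, 2 of 4 *Hoxd* and none of 9 *Hoxa* genes, of which *Hoxa7* was called lower. The 8 include *Hoxc12*, at 1.86 TPM on average at day 0, 0.279 ± 0.242 TPM at day 1 and 1.97 TPM at day 3. Its rise after day 1 was a return to the day 0 level. *Hoxa5* was at 107 ± 5.71 TPM at day 1, then at 99.7, 106 and 95.0 TPM at day 3, with no read at day 0. *Hoxc9* was at 0.267 ± 0.153 TPM at day 1, then at 14.1, 14.9 and 16.7 TPM at day 3. *Hoxb9* and *Hoxb13*, the last genes of their cluster, were at 78.2 ± 6.08 and 18.4 ± 0.926 TPM at day 3. *Hox* genes overlap antisense transcripts, and the strand setting of the counting is not given in the sources used here, so reads of both cannot be told apart.

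**Figure D4:**
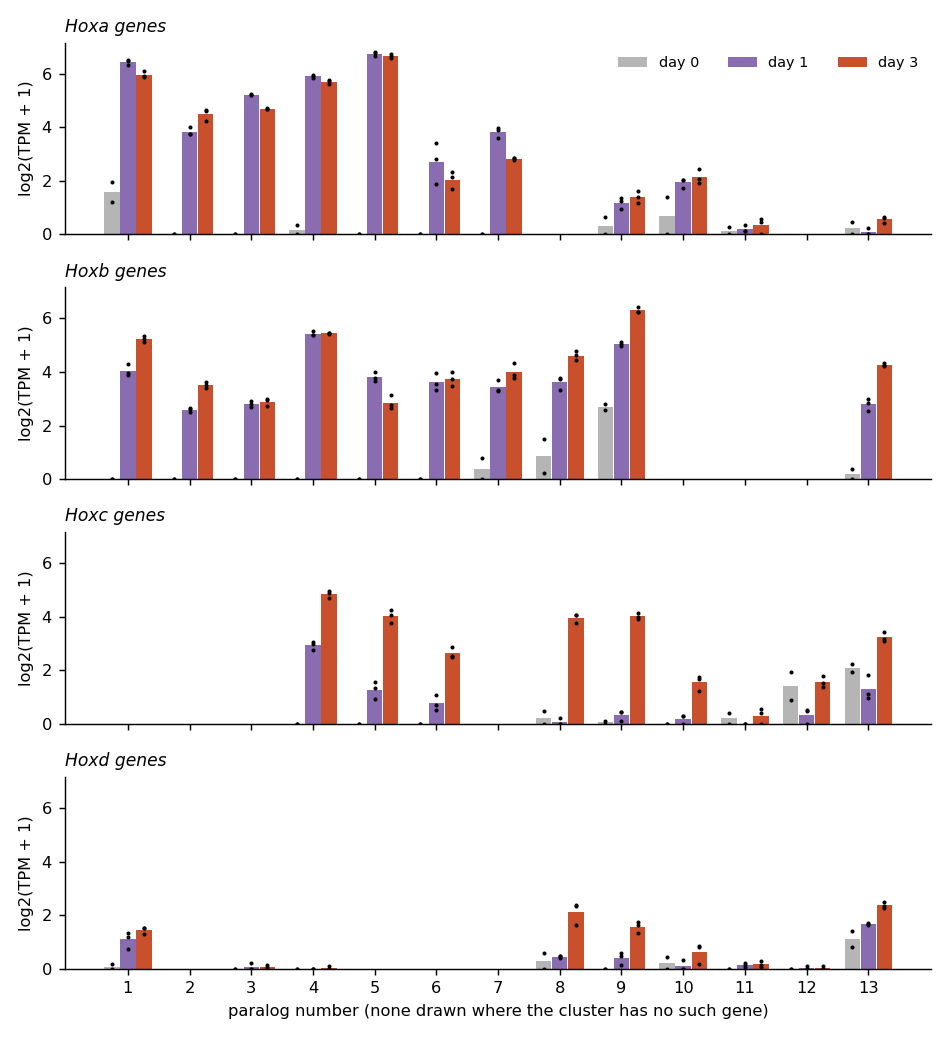
Mean level of every Hox gene as log2(TPM + 1) at day 0, day 1 and day 3 (bars), with the wild-type libraries as points, by cluster and paralog number. Of the genes called at day 3, 8 of 9 Hoxa and 10 of 10 Hoxb genes were also called at day 1, against 2 of 7 Hoxc and 1 of 4 Hoxd genes.

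TALE homeobox genes, which encode DNA-binding partners of Hox proteins, included 8 that rose and 1 that fell of 13 tested. Of the 8, 5 passed the filter through day 3 alone. *Meis1* was at 0 and 0.536 TPM at day 0 and 26.2, 23.3 and 25.5 TPM at day 3. *Tgif1*, a TALE repressor, fell from 87.7 and 94.6 TPM to 43.5, 42.3 and 43.4 TPM.

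Regulators of the primitive endoderm, an extraembryonic lineage that separates from the epiblast, rose in 10 of 10 cases, with a median of 4.90, and 3 of them passed the filter through day 3 alone. At day 1, 8 of the 10 were already called higher against the same day 0 libraries, where 10.5% of all genes tested were. *Gata6*, which is sufficient to turn embryonic stem cells into this lineage, was at 1.09 and 1.13 TPM at day 0, at 29.8 ± 1.24 TPM at day 1, then at 87.5, 84.6 and 96.5 TPM at day 3 (log2 fold change 5.42, SE 0.11, adjusted p = 6.76e-14). *Gata4* followed from 1.02 and 2.43 TPM to 81.7, 88.8 and 92.7 TPM, and was at 4.79 ± 0.542 TPM at day 1. *Sox17* had 0 and 0.331 TPM at day 0 and 40.0, 40.3 and 38.6 TPM at day 3. *Foxa2* was at 0 and 0.476 TPM and then at 172, 180.4 and 182 TPM. At day 1 *Foxa2* had risen to 4.28 ± 0.255 TPM (log2 fold change against day 0 2.12, adjusted p = 1.35e-07, limma), far below its day 3 level. *Sox17* was at 0.532 ± 0.0585 TPM at day 1 and, like *Hnf4a*, was not called there. *Dab2*, an endocytic adaptor of this lineage, rose 33.1-fold to 116 ± 8.001 TPM, while *Hnf4a*, a factor of its later visceral derivative, was at 4.39, 5.30 and 5.33 TPM at day 3.

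Of the 13 genes of parietal endoderm and basement membrane, 11 rose and none fell (median 2.50). *Col4a1* and *Col4a2*, the chains of type IV collagen, were at 71.9 and 33.8 TPM on average at day 0 and rose to 2374 ± 154 and 1565 ± 84.5 TPM at day 3. *Lamb1*, a laminin chain, was at 47.2 and 46.6 TPM and then at 970.0, 904 and 1004 TPM. Its partners *Lama1* and *Lamc1* rose 8.07-fold and 2.44-fold, to 1121 ± 139.9 and 1911 ± 314 TPM. *Serpinh1*, the collagen chaperone, which was named for its size of change after its values were seen, was at 60.3 and 63.3 TPM and then at 2252, 2035 and 2067 TPM. *Nid1*, which links laminin to collagen, was not called, at 181 and 174 TPM at day 0 and 130.3, 108 and 149 TPM at day 3.

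Visceral endoderm genes for transport and secretion gave 10 rises and 1 fall of 15 tested (median 2.21). Of the 10, 4 passed the filter through day 3 alone. *Ttr*, the thyroxine and retinol transporter, was at 0 and 0.185 TPM at day 0 and 81.7, 80.1 and 67.2 TPM at day 3. The scavenger receptors *Cubn* and *Lrp2* rose 36.7-fold and 15.2-fold. *Afp*, an abundant product of mature visceral endoderm, reached only 3.79, 3.70 and 3.38 TPM, *Apoa1* was at 1.54 TPM at most and was not called, and *Cer1* had no read in any of the 5 libraries. *Apoe* fell from 515 and 479.8 TPM to 236, 263 and 200.2 TPM.

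Genes of the surface ectoderm and neural crest list were mostly higher as well. Of 14 tested genes of surface ectoderm and neural crest, 12 were higher and 1 lower, led by simple keratins that endoderm and trophoblast also express. *Krt8* was at 36.5 and 40.4 TPM at day 0, then at 2747, 2884 and 2799 TPM at day 3 (log2 fold change 6.16, SE 0.08, adjusted p = 1.38e-15), and *Krt19* went from 12.2 and 7.55 TPM to 710.2, 735 and 658 TPM. Of the 12, 7 passed the filter through day 3 alone, among them *Sox9*, a factor of neural crest and other progenitors, with no read at day 0 and 7.16, 8.02 and 10.1 TPM at day 3. *Snai2*, which acts in migrating crest, was at 1.45 and 0.447 TPM and then at 4.17, 3.56 and 2.98 TPM, a call that was lost without day 0 replicate 2 (log2 fold change 0.89). The 4 listed genes below the filter, *Krt14* and *Trp63* of stratified epithelia and *Tfap2b* and *Sox10* of neural crest, stayed under 1 TPM in all 5 libraries. *Krt17*, a keratin of stratified epithelia that is not on this list, fell from 58.3 and 62.3 TPM to 0.139, 0.136 and 0.598 TPM.

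Among 23 adhesion genes, 13 rose (16 without day 0 replicate 1) and none fell, and genes of both epithelial and mesenchymal cells took part. The tight junction gene *Cldn6* rose 20.7-fold to 374 ± 35.2 TPM. *Cdh2*, the N-cadherin gene, was at 0.856 and 0.728 TPM and then at 24.1, 23.0 and 25.1 TPM. *Cdh1*, the E-cadherin gene, was at 398 and 365 TPM at day 0, then at 762, 689.8 and 773 TPM at day 3, just short of the 2-fold threshold (log2 fold change 0.96, SE 0.09, adjusted p = 3.29e-07). It was called higher without day 0 replicate 1, and by TPM it stayed more abundant than *Cdh2*. All 14 collagen genes outside *Col4a1* and *Col4a2* that passed the filter, of 18 listed, rose, 9 of them having passed it through day 3 alone, among them *Col1a1* (1.08 and 1.75 TPM, then 24.9, 19.96 and 27.4 TPM) and *Col18a1* (406 and 406 TPM, then 1169.5, 1019 and 1127 TPM).

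Markers of other cell types followed. Of 24 neural progenitor and neuronal genes, 14 were below the filter, among them *Pax6* (0.940 TPM at most), *Neurog2*, *Hes5* and *Dcx*. Of the 10 tested, 3 rose (30%, against 19.2% of all genes tested) and 4 fell (40%, against 11.1%), with a median of −0.72. *Sox1*, the earliest marker of neuroectoderm, was at 9.49 and 9.81 TPM at day 0, at 25.8 ± 0.717 TPM at day 1, then at 1.61, 1.62 and 1.44 TPM at day 3. *Tubb3*, the neuronal tubulin, fell from 109 and 90.9 TPM to 14.6, 14.1 and 16.1 TPM. The genes that rose were *Nes*, *Sox11* and *Irx3*, which are not restricted to neural cells. *Nes*, an intermediate filament gene, was at 4.50 and 8.66 TPM and then at 85.6, 84.5 and 91.9 TPM.

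Mesoderm regulators gave 8 rises and 1 fall of 14 tested. Of the 8, 6 passed the filter through day 3 alone, so their share is not a measure of how general the rise was. The rises were led by *Foxf1* and *Hand1*, which act in lateral and extraembryonic mesoderm. *Foxf1* had no read at day 0 and 58.4, 50.8 and 62.3 TPM at day 3, and *Hand1* had none and then 28.4, 25.9 and 37.0 TPM. Among genes of the primitive streak, *T* was at 0.183 TPM at most at day 3, *Mesp1* and *Mixl1* were below the filter and *Eomes* was not called. *Tcf15* fell from 452 and 472 TPM to 11.2, 18.3 and 9.94 TPM.

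Of 11 tested trophoblast markers, 7 rose (6 without day 0 replicate 1) and 1 fell. Of the 7, 4 passed the filter through day 3 alone. *Gata3* had no read at day 0 and 57.7, 55.8 and 61.8 TPM at day 3, and *Cdx2* reached 8.98, 7.20 and 8.82 TPM. The defining trophoblast gene *Elf5* and the placental genes *Tpbpa* and *Prl3d1* had no read in any of the 5 libraries, and *Tfap2c* fell from 20.3 and 22.6 TPM to 4.35, 5.86 and 6.87 TPM. *Gata3* and *Tfap2c* are also on the surface ectoderm and neural crest list. Fibroblast markers were tested in 7 of 15 cases, of which 5 rose and 1 fell. Of the 5, 2 passed the filter through day 3 alone. *Acta2* and *Dcn* had no read at day 0 and 109.5 ± 6.21 and 15.5 ± 1.19 TPM at day 3, whereas *Postn*, *Lum*, *Fap* and *Prrx1* stayed under 0.3 TPM. The summed level of the fibroblast list was 70.0 and 75.0 TPM at day 0 and 309.5, 295.8 and 305.9 TPM at day 3, with *Fbln1* as its most abundant member. The part of such cells in these results was not tested.

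**Figure D5:**
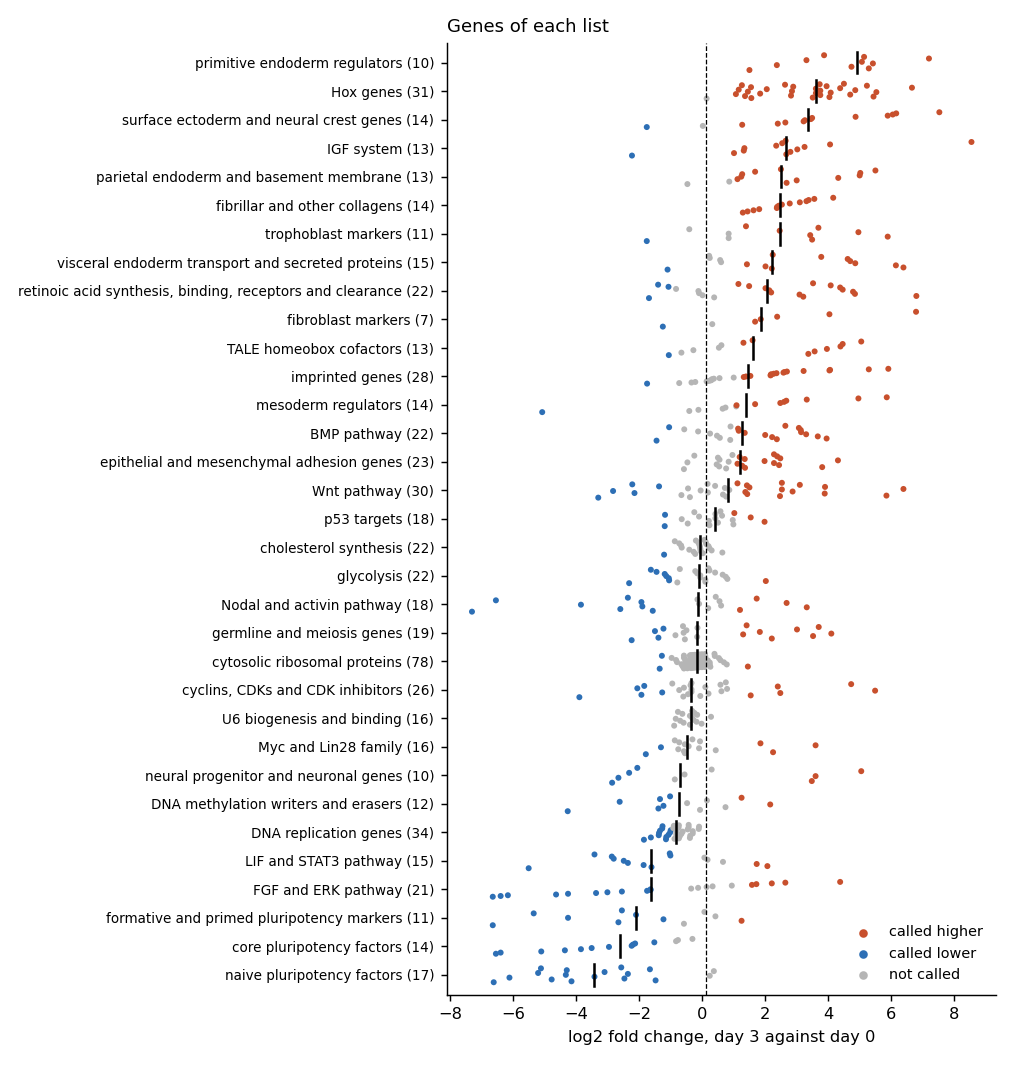
Log2 fold change at day 3 against day 0 (horizontal axis) of each tested gene in 33 lists, with the number tested in brackets, a black bar at the median of the list and a dashed line at the median of all genes tested (0.12). Primitive endoderm regulators (median 4.90) lay at one end and naive pluripotency factors (−3.42) at the other on this scale, which compresses genes near 0 (on recovered reads the medians of Hox, surface ectoderm and neural crest, and primitive endoderm genes were 6.86, 6.16 and 5.44), while the medians of cholesterol synthesis, ribosomal protein and U6 genes were −0.08, −0.18 and −0.36.

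Signaling pathways differed in direction, and their lists share members with the pluripotency lists above. *Fgf4* is also counted among the core genes, and *Etv4* and *Dusp6* among those of the formative and primed states. Of 21 tested genes of the fibroblast growth factor and ERK pathway, 11 fell (52.4%, against 11.1% of all genes tested) and 5 rose (23.8%, close to the 19.2% of all genes tested), with a median of −1.64. *Fgf4* was at 336 and 310.3 TPM at day 0, at 239 ± 5.53 TPM at day 1, then at 3.45, 1.98 and 3.27 TPM at day 3, 111-fold lower. The feedback genes fell with it, *Spry2* from 283 and 302 TPM to 36.5, 35.3 and 34.5 TPM and *Dusp6*, an ERK phosphatase, from 111 and 99.2 TPM to 16.1, 17.5 and 17.6 TPM. Of the 4 receptor genes, 3 were called higher. *Fgfr1*, the most abundant of them at both days by TPM, was not called, at 60.6 and 61.8 TPM and then 119.6, 115 and 119.8 TPM (log2 fold change 0.94, SE 0.09, adjusted p = 3.17e-07), just under the 2-fold threshold, which it reached after quantile normalization. *Fgfr2* rose 35.8-fold to 45.8 ± 2.04 TPM, and *Fgfr3* and *Fgfr4* rose to 18.8 ± 0.841 and 18.3 ± 1.53 TPM.

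In the LIF and STAT3 pathway, 10 of 15 genes fell and 2 rose (median −1.61). *Klf4* is counted here as well as among the naive factors. *Socs3*, the feedback target of STAT3, went from 231 and 249.5 TPM to 32.9, 35.5 and 32.3 TPM, while the receptor gene *Lifr* was not called (71.4 and 69.2 TPM, then 78.3, 72.5 and 87.8 TPM). The rises were *Jak2*, at 26.5, 29.2 and 32.6 TPM at day 3, and *Lif*, whose call was lost without day 0 replicate 1.

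Nodal and activin genes fell in 8 of 18 cases (44.4%, against 11.1% of all genes tested) and rose in 4 (22.2%, close to the 19.2% of all genes tested). The ligand *Nodal* was at 156 and 142 TPM at day 0, higher at day 1 (201 ± 10.9 TPM) and at 43.4, 40.4 and 34.2 TPM at day 3, and *Fst*, which binds activin, rose 9.11-fold. In the BMP pathway 13 of 22 genes rose and 2 fell, or 1 without day 0 replicate 1 (median 1.26). The target genes *Id3* and *Smad6* rose to 482 ± 27.8 and 135 ± 2.41 TPM. Its ligands diverged, with *Bmp4* falling from 118 and 124 TPM to 41.3, 43.6 and 46.0 TPM and *Bmp2* rising from 0 and 0.0635 TPM to 10.3, 11.8 and 14.8 TPM.

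Wnt genes rose in 14 (15 without day 0 replicate 1) and fell in 5 of 30 cases (median 0.81). Of the 14, 6 passed the filter through day 3 alone. *Dkk1* was at 0 and 0.186 TPM and then at 88.6, 94.3 and 87.8 TPM. Of the 5 Frizzled receptor genes on the list, 3 rose and 2 fell. *Fzd7*, the most abundant of them at day 3 by TPM, was at 131 and 129.8 TPM and then at 783, 704.5 and 789 TPM. *Fzd2* rose from 3.83 and 7.89 TPM to 376 ± 7.57 TPM and *Fzd1* from 2.59 and 0.861 TPM to 12.7, 14.95 and 12.4 TPM, whereas *Fzd5* fell 10.2-fold to 23.2 ± 1.99 TPM and *Fzd10* from 52.5 ± 3.43 TPM (SD, n = 2) to 10.5 ± 1.29 TPM. *Axin2*, a general target of the pathway, was at 5.59 and 2.01 TPM and then at 4.24, 6.45 and 7.92 TPM, and was not called with both day 0 libraries but was called higher without replicate 1. In the insulin-like growth factor system, 12 of 13 genes rose and *Igfbp7* fell. Of the 12, 4 passed the filter through day 3 alone. *Igfbp2*, already abundant, went from 470.0 and 444 TPM to 2704, 2781 and 2519.5 TPM, and the receptor gene *Igf1r* from 13.0 and 10.4 TPM to 63.3, 55.1 and 72.9 TPM.

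DNA methylation genes fell in 6 of 12 cases (50%, against 11.1% of all genes tested) and rose in 2 (16.7%, against 19.2%). Among the demethylases of the Tet family, *Tet1* fell from 221 and 236 TPM to 9.54, 9.97 and 13.5 TPM and *Tet2* 6.45-fold to 14.8 ± 1.93 TPM, while *Tet3* was at 5.01 and 5.04 TPM and then at 25.2, 22.8 and 30.5 TPM. *Uhrf1*, which guides maintenance methylation to replicating DNA, fell 2.62-fold. DNA replication genes were lower in 12 and higher in none of 34 cases (median −0.82), with *Mcm5*, a subunit of the replicative helicase, at 818 and 770.0 TPM and then at 250.1, 255 and 263 TPM. The median was −0.81 after quantile normalization, −1.01 after scaling to an equal median (18 called lower) and −0.85 in the fit on recovered reads.

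Of 26 cyclins and their partners, 5 were higher (19.2%, the share of all genes tested) and 5 lower (19.2%, against 11.1% of all genes tested), or 6 lower without day 0 replicate 1. *Ccnd1* fell from 106 and 120.1 TPM to 5.55, 6.73 and 7.73 TPM and *Ccne1* from 369.6 and 355 TPM to 92.9, 97.9 and 91.6 TPM, whereas *Ccnd2* rose from 6.99 and 5.09 TPM to 33.1, 32.9 and 42.2 TPM. The inhibitor gene *Cdkn2a* was at 0 TPM in day 0 replicate 1 and 7.32 TPM (38 reads) in replicate 2, and at 128, 140.3 and 118 TPM at day 3, so the size of its rise depends on which day 0 library is used. *Cdkn1a* rose 2.95-fold. *Myc* was not called (85.5 and 93.2 TPM, then 50.1, 52.7 and 54.1 TPM), and *Mxd4*, which encodes an antagonist of Myc, rose 15.6-fold.

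Imprinted genes, which are expressed from a single parental copy, rose in 16 and fell in 1 of 28 cases (median 1.46). Of the 16, 5 passed the filter through day 3 alone. *Peg3* was at 9.77 and 12.9 TPM and then at 689, 631 and 907 TPM, and *Dlk1* at 3.74 and 4.71 TPM and then at 216, 202 and 192 TPM. Neighbouring genes did not move as one. *Meg3* and *Rian*, non-coding genes next to *Dlk1*, were not called, with log2 fold changes of 0.31 and 0.14. Germline genes gave 8 rises (42.1%, against 19.2% of all genes tested) and 4 falls (21.1%, against 11.1%) of 19. *Stra8*, the RA-induced gene of meiotic entry, was at 25.4 and 25.1 TPM at day 0, peaked at 869 ± 32.4 TPM at day 1 and was at 314, 305 and 281 TPM at day 3. *Rec8*, a meiotic cohesin, rose further with time, to 102 ± 1.41 TPM at day 1 and 323, 314 and 318 TPM at day 3.

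The remaining groups differed in the share of genes called. Of 78 ribosomal protein genes, *Rps27* was called higher and *Rpl24* and *Rpl29* lower, and the median was −0.18. The calls of *Rps27* and *Rpl24* were lost without day 0 replicate 1. Ribosomal protein genes have many processed copies in the genome that may share reads, so single members are uncertain. None of the 16 genes of U6 biogenesis and binding was called in limma or in the fit on recovered reads, and 2 were called lower after scaling to an equal median, where the median of the list was −0.56 in place of −0.36. At an unadjusted p under 0.05, which 64.8% of all genes tested passed, there were 13 of the 16, of which 12 had a negative change, as had 5185 of the 11971 such genes among all tested. *Usb1* itself was at 40.0 and 37.1 TPM at day 0, then at 33.7, 32.0 and 35.8 TPM at day 3 (log2 fold change −0.18, SE 0.12, adjusted p = 0.201). Its change was −0.25 (adjusted p = 0.0343) after quantile normalization and −0.38 (adjusted p = 0.00241) after scaling to an equal median, both under 2-fold. Cholesterol synthesis genes were called in 1 of 22 cases (*Idi1*, lower), or 2 without day 0 replicate 1. In glycolysis 7 of 22 genes fell (31.8%, against 11.1% of all genes tested) and 1 rose (4.55%, against 19.2%), with *Pkm*, a pyruvate kinase, among those that fell, from 1742 and 1700.3 TPM to 798, 864 and 807 TPM. Of the 18 genes of the p53 target list, which includes *Trp53* itself, 3 rose (16.7%) and 2 fell (11.1%), shares close to the 19.2% and 11.1% of all genes tested. *Trp53*, which encodes p53 and is not a target in this sense, is counted among the falls, from 410.0 and 473 TPM to 199, 195 and 186 TPM.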

How the data were processed

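Total RNA of 17 libraries was sequenced on an Illumina NovaSeq, and the authors deposited a table of 54532 genes in TPM, made from gene length and read counts. The submitters' processing notes name GRCm38.p6, HISAT2 2.1.0 and StringTie 1.3.6. TPM keeps no depth by itself, but TPM times exon length (GENCODE M21) gave whole reads within 0.01 for 95.9% to 96.7% of values, and these recovered reads served for depth and for an alternative fit. Genes that reached 1 TPM in 2 or more of the 5 wild-type libraries of day 0 and day 3 entered limma 3.58.1 (R 4.3.3, variance trend) on log2(TPM + 1), with 6 group means over 17 libraries and Benjamini-Hochberg adjustment. The fit was tested on simulated data in which 200 of 18475 genes were changed, none of them near 0 TPM. There 92% of genes changed by 1.5 on the log2 scale were recovered. The simulation held far fewer changed genes than the data and did not model the low-read pattern of day 0 replicate 1, so this share need not hold for weakly expressed genes. Members and the 35 gene lists were chosen with earlier results of these data known. Genes named are list members, the 15 largest rises and falls among called protein-coding genes without overlap and with at least 10 TPM in the higher group, and *Usb1*. A few others were named for a promoter match or after their values were seen, and are marked so where they appear. Promoters came from RefSeq. The alternatives covered pseudocount, filter, threshold, scaling, variance model, libraries, replicate block and unit. Genes that share reads with copies are uncertain.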

Additional observations from a re-analysis of the deposited data

Results flagged for a closer look

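The change from day 0 to day 3 was compared between the knockout line and the wild-type cells as an interaction term in the same limma fit, which called 555 of 18475 genes (3.0%). Of 154 named genes tested, 28 had such a difference. Many of them were named for the size of their wild-type change, which itself enters the difference. Such a choice favours a smaller change in the knockout, so the directions listed below are not a measure of the knockout response. Each value below is the knockout change minus the wild-type change on the log2 scale, and the libraries with few genes of low read number, both of wild-type day 0 and replicate 1 of knockout day 3, enter every one of them. The count of genes called depended on them: it was 339 without wild-type day 0 replicate 1, 1822 without replicate 2 and 604 without the knockout library, with 248, 498 and 475 genes shared with the 555. All 28 differences kept their sign in these fits, and 20, 27 and 25 of them were called. The calls lost were those of *Tinagl1*, *Tdgf1*, *Crabp2*, *Gata4*, *Tcf15*, *Nodal*, *Bmp2* and *Snai2* without wild-type day 0 replicate 1, of *Dhrs3* without replicate 2, and of *Pou4f2*, *Gata4* and *Tcf15* without the knockout library.

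Among genes that fell in wild-type cells, a positive difference means a smaller fall in the knockout. *Dusp6* fell by 2.55 on the log2 scale in wild-type cells and changed by −0.38 in the knockout, a difference of 2.17 (SE 0.11, adjusted p = 7.6e-08). For *Nanog* the changes were −5.12 and −3.20, a difference of 1.92 (SE 0.10, adjusted p = 8.38e-08). The other positive differences among these genes were *Fgf4* 1.85, *Ccnd1* 1.81, *Etv4* 1.60, *Esrrb* 1.59, *Spry4* 1.44, *Spry2* 1.33, *Mymx* 1.29, *Tdgf1* 1.28, *Fzd10* 1.23, *Gbx2* 1.20, *Tfap2c* 1.12, *Nodal* 1.06, *Tcf15* 1.06 and *Pou4f2* 1.04. The exception among fallen genes was *Tdh*, whose fall was larger in the knockout (difference −1.36).

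Among genes that rose in wild-type cells, the differences were *Sox17* −1.47, *Csf1* −1.38, *Gata4* −1.32, *Tinagl1* −1.30, *Blvrb* −1.26, *Ttr* −1.24, *Bmp2* −1.14, *Lama1* −1.13 and *Dhrs3* −1.07, each a smaller rise in the knockout, while *Crabp2* (1.55) and *Snai2* (1.24) rose more there.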

How the results depend on the processing

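The number of genes called stayed within 1.5 times of 5595 under the alternatives tried, except for the threshold: 11323 genes (6435 higher, 4888 lower) passed the adjusted p alone, and 8665 (3467 lower) passed with a 1.5-fold minimum. Leaving out 1 library at a time gave 4807 to 6131 calls, 3147 to 4212 higher and 1660 to 2095 lower. The deviations of same-numbered libraries from their group means correlated at 0.021 and −0.044. With 2 libraries at day 0 these deviations mirror each other, so the values do not settle whether replicate numbers pair the libraries. The replicate block gave 5579 calls. Of 3056 values of 154 named genes under the alternatives, 3015 kept direction and call, 14 lost and 14 gained a call. The 13 that changed sign belonged to genes that were not called: *Rara* (−0.19 with an equal median and, in both fits, without day 0 replicate 1, −0.01 on recovered reads, −0.20 on recovered reads without that library, −0.00 without day 3 replicate 3), *Rxra* (0.00 in both fits without day 0 replicate 1), *Hoxc12* (−0.16 with quantile normalization, −0.38 without day 0 replicate 2), *Cfap45* (0.56 without day 0 replicate 2), *Lifr* (−0.03) and *Rian* (−0.06), both with an equal median. The opposite ends of the ranges over left-out libraries kept their sign, at 0.20 for *Rara* and −0.23 for *Rxra* without day 0 replicate 2, and at 0.65 for *Hoxc12* and −1.46 for *Cfap45*, then called lower, without replicate 1. The number of genes whose change differed between knockout and wild-type cells was 555, and 339 to 1822 with 1 library left out. These fits, the same-gene fit without day 0 replicate 1, the minimum of 20 reads and recovered reads without that library were added after seeing the data. With 2 libraries at day 0, p-values rest on a spread shared across groups, and leaving out 1 assumes that the lone library varies like the others.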

Other observations

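Non-coding genes took part in the change. Of 647 lincRNA genes tested, 17% were higher and 24.0% lower at day 3, against 20.9% and 10.1% of 13627 protein-coding genes. *Hotairm1*, an antisense gene in the *Hoxa* cluster, was at 0 and 1.98 TPM at day 0 and 77.4, 67.4 and 60.4 TPM at day 3, and had reached 70.7 ± 4.68 TPM at day 1. *Airn*, the antisense transcript of the imprinted *Igf2r* locus, appeared later, with 0.202 ± 0.142 TPM at day 1 and 24.9, 18.3 and 32.2 TPM at day 3. The lincRNA gene *Platr10* fell from 89.9 and 80.5 TPM to 2.73, 1.45 and 2.39 TPM. These genes were chosen after their values were seen.

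Of 609 genes tested on the X chromosome, 25.9% were higher and 7.55% lower, against 19.2% and 11.1% of all genes tested. *Bex1*, *Bex3* and *Tceal9*, which lie close together there, were among the largest gains in TPM, with *Bex1* at 379 and 409.9 TPM at day 0 and 1918, 1958 and 1692 TPM at day 3. Among the largest losses in TPM were *Dppa5a*, a pluripotency-associated gene that was higher at day 1 (5792 ± 281 TPM) than at day 0 (3825 and 3775 TPM) before it fell to 823, 897 and 709 TPM, and the chaperone gene *Hsp90aa1* (3602 and 3248 TPM, then 994, 1104 and 1097 TPM). The genes of this paragraph were likewise chosen after their values were seen.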
